A study of Homo sapiens with 10 samples.

Results

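The genes described here encode the proteins of the human mitochondrial ribosome. They were taken by symbol: every named feature called MRPL or MRPS, followed by a number and at most 1 letter. This found 74 of the 19301 named features, with 68 different symbols, of which 43 belong by name to the large subunit (MRPL) and 25 to the small subunit (MRPS). MRPS18B appears 7 times, once with a signal and 6 times at 0 FPKM in every library, so 68 features were expressed, and all 68 were tested. The rule itself reads symbols and no measured value.

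Mitochondria carry their own ribosome, which translates the few messages of the mitochondrial genome, all of them for inner-membrane subunits of the respiratory chain and the ATP synthase. Its RNAs are made inside the organelle, whereas its proteins are encoded in the nucleus, translated in the cytoplasm and imported. The small subunit decodes the message, and the large subunit forms peptide bonds and passes the new protein to the membrane through its exit tunnel. Some of the proteins have bacterial relatives (MRPL3, MRPL11, MRPS7 and MRPS12 among them), and others, such as MRPL37 and MRPL40, are specific to mitochondria. Symbols do not always follow the structure: the products of MRPS30 and MRPS18A sit in the large subunit, and MRPS36 has been described as a part of the 2-oxoglutarate dehydrogenase complex. The subunit given by the symbol was kept for all of them.

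The RNA came from HEK293FT, an easily transfected derivative of a human embryonic kidney line, here with Gaussia and Cypridina luciferase genes inserted by lentivirus. All 10 libraries, in 5 groups of 2, are from cells that received a plasmid for dCas9-VP64, a nuclease-dead Cas9 joined to a transcriptional activator, with carrier plasmid by lipofection, and RNA was collected 3 days later. The group CasVP had the activator alone, and the groups sgRNA, INT, P4P6 and TOP1 had in addition a guide RNA against the Gaussia gene; what sets the INT, P4P6 and TOP1 guides apart is not stated in the labels, and all groups rest on transient transfection of 1 line. A guide named TOP1 is not the gene of that name. Libraries are named by group and by the index, 0 or 1, that the deposited columns carry. Whether the libraries of a group are separate cultures is not stated, so p-values measure the spread between these samples only.

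Values are the authors' FPKM, fragments per kilobase of transcript scaled for library size. Depth relative to CasVP library 0, estimated from the steps between low values, ran from 0.694 (P4P6 library 0) to 1.02 (TOP1 library 0); only 36.9 to 47.8% of those steps lay within 0.02 (log2) of the common value, so these depths are approximate. Of 9 markers of HEK293 and embryonic kidney, 8 were above 2 FPKM in every library (HOXA10 46.7 to 61.2, CDH2 35.3 to 38.8, LIN28B 21.9 to 26.6), and PAX2 was at 0.755 to 1.28. Among markers of fibroblasts, leukocytes, hepatocytes and endothelium the highest was COL1A1, at 0.981 to 1.94 FPKM, and COL1A2 was at 0 throughout.

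The stretches below show the last 90 bases before the annotated start of 10 of these genes, from RefSeq promoters on GRCh38.p14, printed 5′ to 3′ on the strand of the gene. They were picked to show the ETS-type, YY1-type and NRF1-type letters described next, beside the gene with the largest difference between groups. The CCAAT box, also described next, was not marked. All but MRPS34 and MRPL36 are among the genes found below to be lower with P4P6 than with sgRNA. Others of those genes, MRPL9, MRPL11, MRPL18, MRPL39, MRPL46, MRPL51, MRPS7 and MRPS35, have no match in this stretch and are not printed. The choice therefore does not show how often a match goes with that difference. Capitals mark a match to the ETS-type letters CCGGAAG, the YY1-type letters AAGATGGC or the NRF1-type letters (GCGCA, any base, then GCGC), on either strand. The expression values themselves were made on hg19, per the submitters' processing notes, and no coordinate was carried between builds.
MRPS21, chr1:150293771-150293860, plus strand: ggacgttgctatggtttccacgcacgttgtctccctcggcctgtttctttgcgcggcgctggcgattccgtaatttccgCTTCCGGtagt
MRPS23, chr17:57850045-57850134, minus strand: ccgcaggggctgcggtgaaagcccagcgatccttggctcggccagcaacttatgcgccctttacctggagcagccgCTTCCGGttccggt
MRPL40, chr22:19432455-19432544, plus strand: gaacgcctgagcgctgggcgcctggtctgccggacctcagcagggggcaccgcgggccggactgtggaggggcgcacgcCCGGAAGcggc
MRPL33, chr2:27771629-27771718, plus strand: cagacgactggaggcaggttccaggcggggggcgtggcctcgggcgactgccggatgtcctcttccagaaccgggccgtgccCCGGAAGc
MRPL3, chr3:131502972-131503061, minus strand: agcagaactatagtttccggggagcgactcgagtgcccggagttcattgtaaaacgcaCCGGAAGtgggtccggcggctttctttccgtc
MRPL47, chr3:179604639-179604728, minus strand: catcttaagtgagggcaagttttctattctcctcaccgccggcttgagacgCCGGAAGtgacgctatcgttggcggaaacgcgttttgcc
MRPS34, chr16:1773135-1773224, minus strand: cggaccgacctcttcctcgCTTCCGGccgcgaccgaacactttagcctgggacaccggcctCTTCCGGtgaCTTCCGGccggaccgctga
MRPL36, chr5:1799838-1799927, minus strand: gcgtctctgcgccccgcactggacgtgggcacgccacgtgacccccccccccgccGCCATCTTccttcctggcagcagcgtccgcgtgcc
MRPL17, chr11:6683341-6683430, minus strand: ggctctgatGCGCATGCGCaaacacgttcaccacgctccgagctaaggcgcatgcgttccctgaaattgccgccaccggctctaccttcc
MRPL24, chr1:156741089-156741178, minus strand: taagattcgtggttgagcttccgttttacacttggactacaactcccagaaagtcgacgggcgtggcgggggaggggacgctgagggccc
MRPS21, MRPS23, MRPL40, MRPL33, MRPL3 and MRPL47 each hold 1 ETS-type match, MRPS34 holds 3, MRPL36 holds a YY1-type match and MRPL17 an NRF1-type match. MRPL24 holds none in this stretch.

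Promoters from 250 bases before to 50 after the start were matched for 60 of the 68 members. The ETS-type letters, the core recognised by ETS factors such as GABPA (also called NRF2), were in 23 of them (38.3%), against 18.9% of the 7932 tested features with a promoter and 10.6% of all 27305 promoters of the same length. The YY1-type letters were in 19 (31.7%), against 5.6% of tested features and 3.0% of all promoters. Counting only matches wholly before the start, the YY1-type share was 8.3% of members and 1.8% of tested features. The ETS-type share was then 31.7% and 15.8%. For NRF1, a factor known for nuclear genes of the respiratory chain, the match was in 4 members (6.7%) against 11.3% of tested features and 6.1% of all promoters. The CCAAT box, searched as CCAAT on both strands and able to overlap the others, was in 35% of members, 36.5% of tested features and 35.6% of all promoters. These are letter matches and not measured binding.

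Large and small subunit genes had close shares, with ETS-type letters in 36.1% of 36 large and 41.7% of 24 small subunit promoters and YY1-type letters in 30.6% and 33.3%. Genes of the cytoplasmic ribosome had a similar ETS-type share (35% of 60) and a lower YY1-type share (11.7%), and genes of respiratory complex I, the NADH dehydrogenase, had 7.4% and 22.2% (n = 27). The 2 kinds of match sat in different places: the 31 ETS-type matches had a median position 22 bases before the start, and the 20 YY1-type matches a median 11 bases after it, with 14 at or after the start. Members with the ETS-type letters had a median level of 64.1 FPKM, and the other 37 had 55.0.

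**Figure D1:**
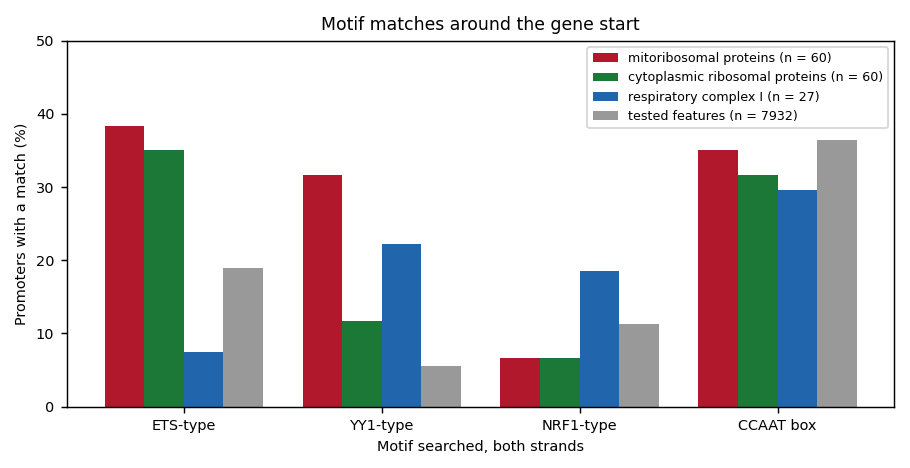
Share of promoters (%, vertical axis) with each motif (horizontal axis, both strands searched), for mitochondrial ribosomal protein genes, cytoplasmic ribosomal protein genes, complex I genes and all tested features with a promoter; bars start at 0 and carry no error. Mitochondrial ribosomal protein genes stand at 38.3% for ETS-type and 31.7% for YY1-type letters, against 18.9% and 5.6% of tested features. A match may lie before or after the start.

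Messages for the mitochondrial ribosome were abundant. Mean levels over the 10 libraries ran from 13.5 FPKM (MRPL22) to 211 FPKM (MRPL51), a range of 15.7-fold, with a median of 55.1 and quartiles of 40.6 and 81.4. All 68 were above 10 FPKM, so none was near the filter at a mean of 1 FPKM, and 60 stood above the upper quartile of the tested features. Only 11 were above 100 FPKM and 5 below 25, while 25 lay between 40 and 60. The large subunit median was 58.0 FPKM (13.5 to 211) and the small subunit median 53.1 (21.7 to 209).

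The highest large subunit message was MRPL51, at 210 and 214 FPKM in CasVP, 228 and 225 in sgRNA, 204 and 198 in INT, 185 and 196 in P4P6 and 228 and 223 in TOP1. MRPL37, MRPL33 and MRPL21 followed, with means of 203, 132 and 120 FPKM. In the small subunit MRPS21, a relative of a small bacterial protein, was highest at 209, followed by MRPS34 at 145, MRPS24 at 112 and MRPS33 at 108. The ranges of MRPL51, MRPS21 and MRPL37 over the 10 libraries overlapped, whereas those of MRPL37 and MRPS34 did not. Such ranges include differences between groups, and whether the order of the first 3 holds within each library was not tested.

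At the low end stood MRPL22, a protein at the exit tunnel, with 12.0 to 14.8 FPKM over the 10 libraries, then MRPL35 (15.1 to 17.4), MRPL44 (17.1 to 20.3) and MRPL17 (20.4 to 28.4). Of these, MRPL22 did not overlap MRPL35, while MRPL35 and MRPL44 did. The lowest genes with small subunit symbols were MRPS36, MRPS30, MRPS10 and MRPS18A, with means of 21.7, 22.6, 28.3 and 28.9 FPKM. MRPS30 and MRPS18A, whose products belong to the large subunit, were thus both in the low group by symbol.

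MRPS18A, MRPS18B and MRPS18C are paralogs that occupy different sites on the ribosome. MRPS18B was highest at 57.9 to 65.2 FPKM, MRPS18C stood at 41.7 to 62.6, and MRPS18A at 24.9 to 31.2. MRPS18A was below both others in every library, and MRPS18B and MRPS18C overlapped through TOP1 library 0, where MRPS18C reached 62.6. The 6 MRPS18B features at 0 lie in the table beside genes of the same chromosomal neighbourhood as the expressed copy. Whether these features are near-identical copies, with fragments assigned to only 1 of them, was not tested, so the level of MRPS18B is uncertain.

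MRPL12, the stalk protein that engages the translational GTPases, has no feature of its own. It was counted with SLC25A10 in a joint feature, MRPL12,SLC25A10, at 130 to 163 FPKM. Another 6 proteins of the ribosome, MRPS6, MRPS16, MRPS28, MRPL30 and MRPL38 among them, were also counted only together with a neighbour, at means of 40.7 to 90.4 FPKM. These 7 joint features are not among the 68 members.

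**Figure D2:**
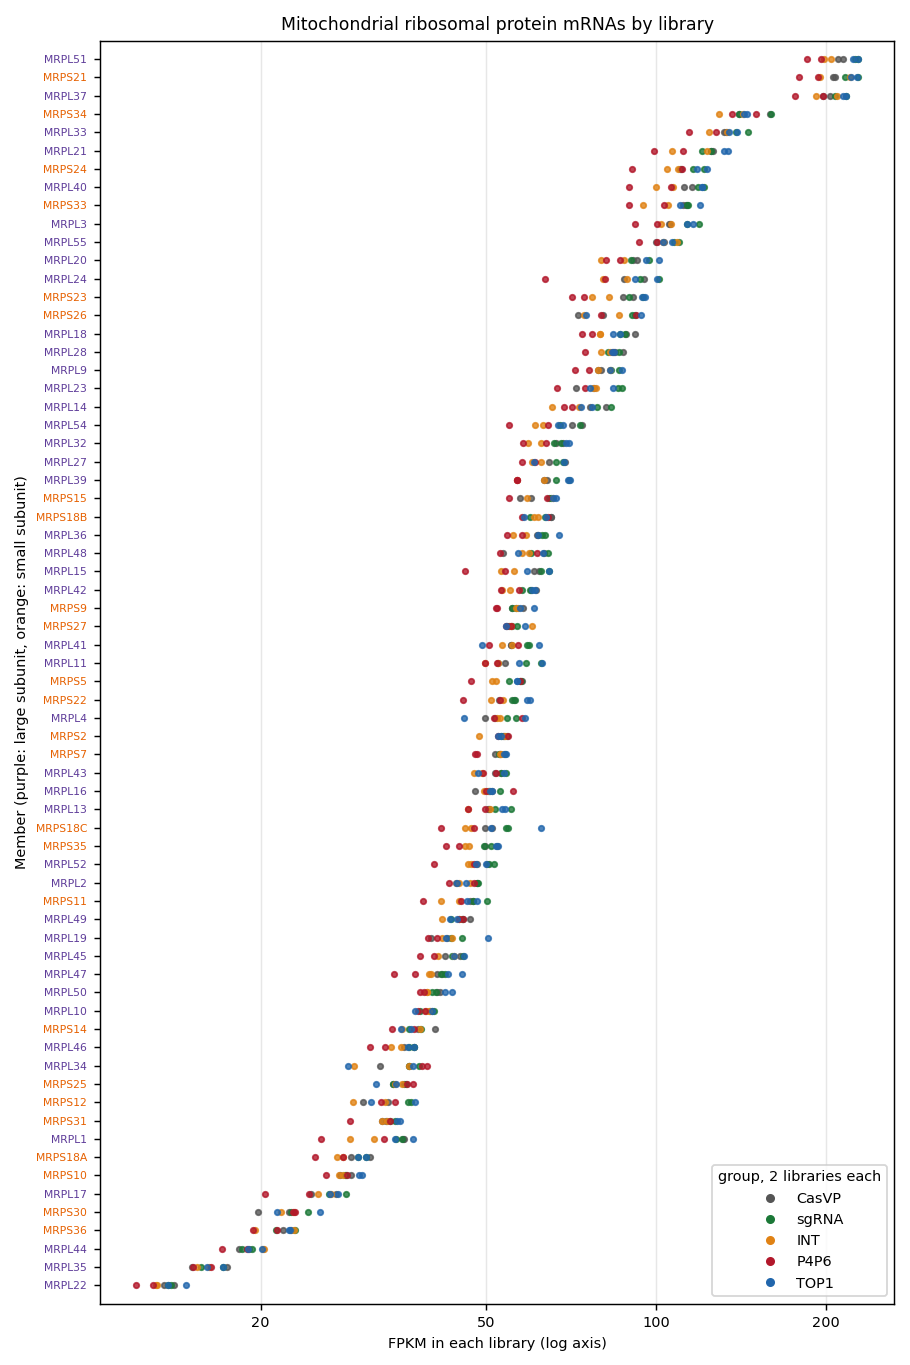
FPKM of each of the 68 expressed members (vertical axis, ordered by mean) in each of the 10 libraries (horizontal log axis), coloured by group with 2 libraries each; purple names are large subunit and orange names small subunit symbols. The values run from MRPL22 at 12.0 to 14.8 up to MRPL51 at 185 to 228, and the red P4P6 points often lie at the left of a row.

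Each gene varied little over the 10 libraries, with a median coefficient of variation of 6.60%, from 2.66% (MRPL10) to 12.6% (MRPL24). Other tested features in the same range of levels had a median of 5.64% (n = 5677). The 68 messages together made up 0.772 to 0.801% of the summed FPKM of named features in each library. That share was 0.793 and 0.801% in CasVP, 0.790 and 0.801% in sgRNA, 0.772 and 0.780% in INT, 0.789 and 0.779% in P4P6 and 0.794 and 0.789% in TOP1. INT and P4P6 lay below CasVP and sgRNA without overlap, although P4P6 library 0 and sgRNA library 0 were nearly equal, and P4P6 overlapped INT and TOP1. Their summed FPKM averaged 4529.7 in CasVP, 4709 in sgRNA, 4335 in INT, 4166 in P4P6 and 4690 in TOP1, while the summed FPKM of all named features was also lowest in P4P6, at 540085 and 522550 against 596433 and 587614 in sgRNA.

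The libraries differed by group. On the log2(FPKM + 1) scale, the median deviation of the members from their own means over the 10 libraries was -0.06 (library 0) and -0.12 (library 1) in P4P6, and -0.03 and -0.05 in INT. It was above 0 in sgRNA (0.06 and 0.06) and TOP1 (0.08 and 0.05) and close to 0 in CasVP (0.02 and 0.02). The pooled SD between libraries of a group was 0.0207, and the median of all tested features stayed between -0.01 and 0.01. For 51 of the 68 members the lowest of the 10 libraries was in P4P6 (36 in library 1 and 15 in library 0), for 8 in INT, 5 in TOP1, 4 in CasVP and 0 in sgRNA. The highest library was in TOP1 for 30 members and in sgRNA for 20. These counts were made for the members only, so no share over all tested features stands beside them. Over all tested features, both P4P6 libraries lay below both sgRNA libraries for 30.6% and above both for 25.9%. In bulk RNA, a lower share of cells and less RNA per cell cannot be told apart.

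Both subunits followed that order. The summed FPKM of large subunit genes was 1.81 to 1.87 times that of small subunit genes in every library. P4P6 had the lowest ratio, 1.81 in both libraries, against 1.87 and 1.83 in CasVP, 1.86 and 1.85 in sgRNA, 1.85 and 1.82 in INT and 1.85 and 1.83 in TOP1. The pooled SD of the ratio between libraries of a group was 0.0176, so the gap between the lowest ratios and INT library 1 was within that spread. No test of the ratio was made with 2 libraries a group.

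**Figure D3:**
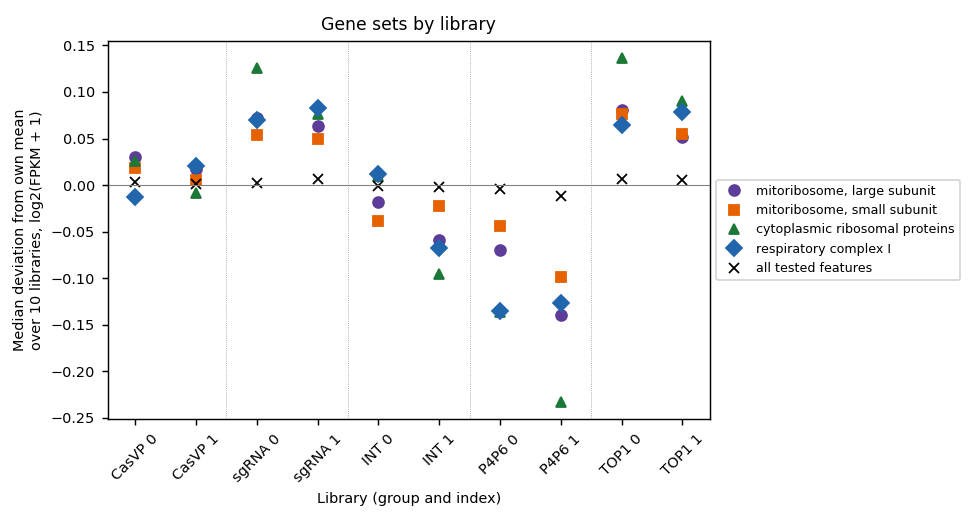
Median deviation of a gene set from each gene's own mean over the 10 libraries (vertical axis, log2 of FPKM + 1) in each library (horizontal axis), for large and small subunit members, cytoplasmic ribosomal proteins, complex I subunits and all tested features. P4P6 library 1 is lowest for both subunits (-0.14 and -0.10) and for the cytoplasmic ribosome (-0.23), while all tested features stay between -0.01 and 0.01.

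Differences were then tested gene by gene with limma over all tested features, on log2(FPKM + 1). With the P4P6 guide, 18 of the 68 members were lower than with the sgRNA guide at a Benjamini-Hochberg adjusted p under 0.05 and 0 were higher. The background in that comparison was 11.5% of the 11574 tested features in either direction and 7.17% lower, against 26.5% of the members. With a filter at a mean of at least 5 FPKM, 16% of 9127 features passed in either direction and 10.4% lower, beside 21 members. The members' median log2 difference was -0.15, beside -0.01 for all tested features, and 64 of 68 estimates were below 0, with 63 under median-of-ratios rescaling and 56 under quantile normalization. The falls were small, from 10.0 to 25.7% of the level with sgRNA. Higher calls made up 4.33% of the tested features. Unadjusted, 39 members had p under 0.05, beside 30.3% of all features. Both P4P6 libraries lay below both sgRNA libraries for 48 members (30.6% of all features) and above both for 2 (25.9%). Of the large subunit 14 of 43 passed (median -0.17) and of the small subunit 4 of 25 (median -0.12); whether the subunits differ was not tested.

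MRPL24, a large subunit protein with a bacterial relative, fell furthest. It stood at 81.2 and 63.7 FPKM in P4P6 and at 101 and 93.9 in sgRNA, with 95.1 and 87.9 in CasVP, 88.9 and 80.7 in INT and 100 and 91.7 in TOP1. Its log2 difference from sgRNA was -0.43 (limma SE 0.10, adjusted p = 0.0307). The P4P6 libraries did not overlap those of sgRNA, CasVP or TOP1, but library 0 lay above INT library 1. P4P6 library 1 was the lowest of all 10 for this gene.

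MRPL15, also with a bacterial relative, showed 54.0 and 45.9 FPKM in P4P6 and 64.7 and 62.5 in sgRNA, beside 60.9 and 62.1 in CasVP, 56.1 and 53.2 in INT and 64.7 and 59.2 in TOP1. The log2 difference from sgRNA was -0.35 (limma SE 0.07, adjusted p = 0.0251). As for MRPL24, P4P6 overlapped only INT. MRPL40, a mitochondria-specific protein of the large subunit, was at 106 and 89.5 FPKM in P4P6 and at 119 and 121 in sgRNA, with 116 and 112 in CasVP, 107 and 100 in INT and 121 and 120 in TOP1. Its difference was -0.30 (SE 0.07, adjusted p = 0.0317).

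Among small subunit genes MRPS23, a mitochondria-specific protein, changed most and had the smallest SE of these 4 genes. It read 74.5 and 70.9 FPKM in P4P6, below all other libraries: 95.1 and 89.6 in sgRNA, 87.3 and 91.0 in CasVP, 82.7 and 77.2 in INT and 95.7 and 94.4 in TOP1. The log2 difference from sgRNA was -0.34 (limma SE 0.05, adjusted p = 0.0221). MRPS23 was the single member that still passed after quantile normalization, at -0.24 (adjusted p = 0.0362).

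The other 14 that passed were MRPL3, MRPL9, MRPL11, MRPL17, MRPL18, MRPL23, MRPL33, MRPL39, MRPL46, MRPL47, MRPL51, MRPS7, MRPS21 and MRPS35. They include MRPL51 (-0.25, limma adjusted p = 0.0231) and MRPS21 (-0.25, 0.0355), which are among the most abundant members, and one of the least abundant, MRPL17 (-0.29, 0.0495). MRPS7, a head protein of the small subunit, had the smallest fall: 48.3 and 47.9 FPKM in P4P6 against 52.9 and 54.0 in sgRNA, a log2 difference of -0.15 (adjusted p = 0.0433). Of the 16 genes that passed and have a promoter here, 7 (43.8%) hold the ETS-type letters, beside 23 of all 60 members with a promoter (38.3%). Of the 37 members without these letters, 9 also passed. The YY1-type letters were in 4 of the 16 genes and 19 of the 60 members. The CCAAT box was in 3 of the 16 and 21 of the 60, and the NRF1-type letters in 1 and 4. Whether these shares differ was not tested.

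**Figure D4:**
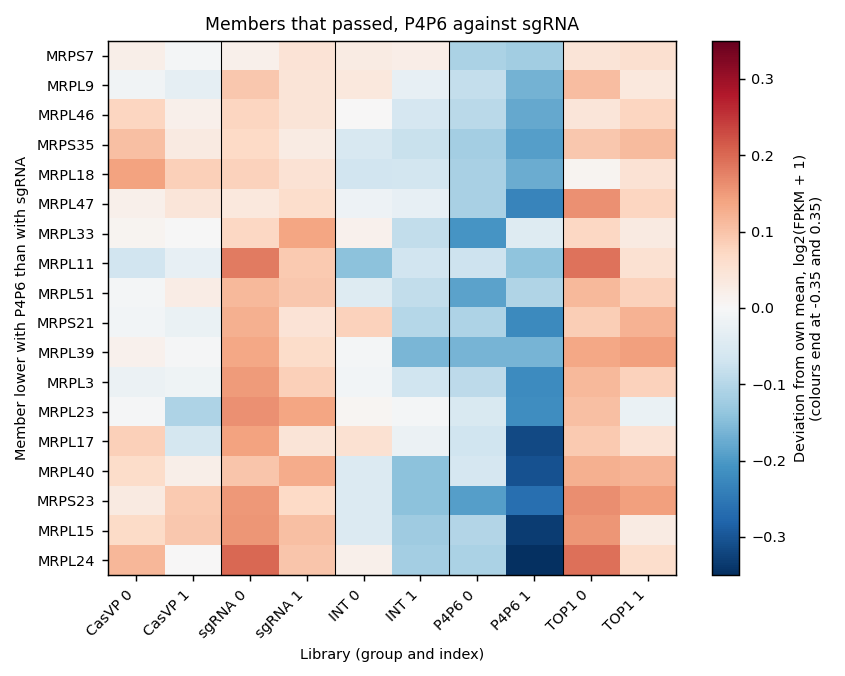
Deviation of each library (horizontal axis) from a gene's own mean, log2 of FPKM + 1, as colour for the 18 members that were lower with P4P6 than with sgRNA (vertical axis, largest fall at the bottom); blue is below the mean and colours end at the values on the bar. Both P4P6 columns are blue for all 18, and P4P6 library 1 is darkest for MRPL24.

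Not every member was lower. MRPL34, MRPL16, MRPL49 and MRPS25 had estimates above 0, none of which passed. MRPL34 stood at 38.6 and 39.4 FPKM in P4P6, above the 36.6 and 38.2 of sgRNA, with a log2 difference of 0.06 (limma SE 0.12, adjusted p = 0.775). MRPS25 stood at 37.1 and 36.3 against 36.1 and 34.2 (0.06, adjusted p = 0.48). For 22 of the 68 members the 95% interval of the difference between P4P6 and sgRNA lay within 1.2-fold in either direction, and for 67 within 1.5-fold.

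These calls depend on single libraries and on scaling. Leaving out P4P6 library 1, sgRNA library 0 or sgRNA library 1 removed the calls among members, and nearly all calls among all features as well. Leaving out P4P6 library 0 raised both. The members' median difference was -0.13 without P4P6 library 1 and -0.17 without P4P6 library 0, with 60 and 62 of 68 estimates below 0. After quantile normalization 1 of 68 passed, beside a background of 3.36% of all features in either direction and 0.786% lower.

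P4P6 against TOP1, a comparison added after the values had been seen, gave 28 members lower and 0 higher, with a background of 20% of tested features in either direction and 11.4% lower. With a filter at a mean of at least 5 FPKM, 29 members passed, beside 25.3% of features in either direction and 15.5% lower. The median member difference was -0.17 (all features -0.01), and 59 of 68 estimates were below 0 (59 under median-of-ratios rescaling and 50 under quantile normalization). Here 19 of 43 large and 9 of 25 small subunit genes passed, with medians of -0.18 and -0.15. Both this comparison and that with sgRNA use the same P4P6 libraries. MRPL33 and MRPL23 passed against sgRNA only, 12 members against TOP1 only, and 16 against both.

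Against TOP1, MRPL24 (-0.41, limma adjusted p = 0.0217) and MRPS23 (-0.38, 0.0101) had the largest falls. MRPS18C was at 47.6 and 41.7 FPKM in P4P6 and at 62.6 and 51.1 in TOP1 (-0.34, 0.0248); against sgRNA, with 54.7 and 54.3, it did not pass (-0.29, adjusted p = 0.0596). MRPL21 was at 112 and 99.3 FPKM in P4P6 and at 132 and 134 in TOP1 (-0.33, 0.015). The other members that passed against TOP1 only were MRPL20, MRPL32, MRPL36, MRPL37, MRPL45, MRPL50, MRPS9, MRPS22, MRPS24 and MRPS33. Without TOP1 library 0, 1 member passed (3.1% of all features), and without TOP1 library 1, 8 passed (5.24%). Without P4P6 library 1, 11 passed (11%), without P4P6 library 0, 35 (23.8%), and after quantile normalization 4 (10.2%).

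Against the activator alone, P4P6 gave estimates below 0 for 59 of 68 members (58 and 52 under the other scalings), with a median of -0.12 beside -0.01 for all features. None passed by limma after adjustment, where 0.00864% of tested features passed, and 30 of 68 had an unadjusted p under 0.05 beside 22.2% of all features. The smallest adjusted p was 0.075. MRPL24 (-0.34, adjusted p = 0.107) and MRPL15 (-0.30, 0.0832) were the largest of the 42 members whose P4P6 libraries both lay below both CasVP libraries; 28.1% of all features did so. In the other direction MRPL34 had 38.6 and 39.4 FPKM in P4P6 and 32.5 and 36.6 in CasVP (0.17, adjusted p = 0.434). MRPS30 had 23.0 and 22.8 against 22.4 and 19.8 (0.11, adjusted p = 0.453). Without P4P6 library 0, 20 members passed, and so did 6.6% of all features (4.61% lower).

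INT lay in the same direction with smaller differences. Against CasVP its median member difference was -0.07, with 50 of 68 below 0, 0 passing by limma (0.0173% of all features passed) and 10 at an unadjusted p under 0.05 (8.86% of all features). The largest without overlap were MRPL1, at 28.8 and 31.7 FPKM in INT and 35.8 and 35.7 in CasVP (-0.24, adjusted p = 0.56), and MRPL54, at 61.0 and 63.0 against 74.1 and 71.0 (-0.22, adjusted p = 0.507). Upward, MRPL44 had 20.3 and 20.2 against 19.0 and 18.3 (0.11, adjusted p = 0.627), and MRPS27, at 60.5 and 55.4 FPKM against 54.5 and 55.0, had 0.08 (adjusted p = 0.7). Against sgRNA, 64 of 68 were below 0 with a median of -0.11, 23 had an unadjusted p under 0.05 (8.77% of all features) and 0 passed (background 0.00864%). Both INT libraries were below both sgRNA libraries for 45 members (23.3% of all features) and above both for 1, MRPL44 (19.7%).

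The libraries with sgRNA and TOP1 resembled each other. Between them the median member difference was -0.00 with 34 of 68 on either side, 0 passed by limma (background 0.00864%), and 0 had an unadjusted p under 0.05 beside 1.68% of all features. For 62 of the 68 the 95% interval of that difference lay within 1.2-fold in either direction. Each was slightly above CasVP, with medians of 0.04 and 0.04, 51 and 50 of 68 estimates above 0, and 0 passing (backgrounds 0.0173% and 0.00864%); 5 and 3 had an unadjusted p under 0.05, beside 6.02% and 9.22% of all features.

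Among single genes of these comparisons, MRPS26 was at 91.8 and 90.6 FPKM in sgRNA and 73.0 and 80.6 in CasVP (0.25, limma adjusted p = 0.791), and MRPL23 at 87.1 and 85.7 against 77.7 and 72.2 (0.20, 0.791). MRPS18B (-0.08, 0.837) and MRPL49 (-0.06, 0.845) had the lowest non-overlapping estimates with sgRNA. With TOP1 the outermost were MRPL11 (0.17, adjusted p = 0.501) and MRPS15 (0.17, 0.533) above CasVP, and MRPS14 (-0.11, 0.592) and MRPL54 (-0.10, 0.68) below it. None of these passed.

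Pooling the 4 guides against CasVP gave a median member difference of -0.02, with 44 of 68 below 0, 0 passing by limma (background 0.0173%) and 3 at an unadjusted p under 0.05 (7.43% of all features). MRPL18 was lower in all 8 guide libraries (73.9 to 88.2 FPKM) than in both CasVP libraries (92.0 and 88.5), with a log2 difference of -0.14 (adjusted p = 0.669). MRPS18B also lay below CasVP in all 8 (-0.09, adjusted p = 0.739), and 3 members did so in all, beside 2.68% of all features. None lay above CasVP in all 8 (2.14% of all features).

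P4P6 against INT and INT against TOP1, both also added after the values had been seen, gave 0 members passing by limma (backgrounds 0.00864% and 0%). Their medians were -0.06 and -0.09, with 53 and 58 of 68 estimates below 0, and 11 and 20 members had an unadjusted p under 0.05, beside 11.2% and 14.2% of all features.

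**Figure D5:**
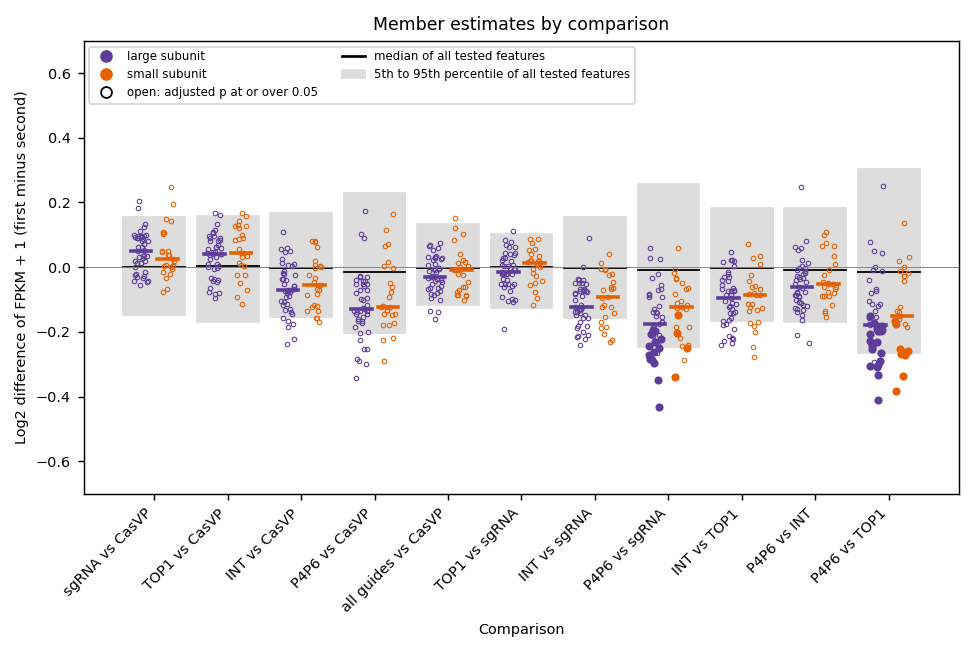
Log2 difference of FPKM + 1 (vertical axis) for each member in each comparison (horizontal axis), large subunit in purple and small subunit in orange; coloured bars are subunit medians, black lines the median and grey boxes the 5th to 95th percentile of all tested features, and filled points passed at an adjusted p under 0.05. Filled points occur in P4P6 against sgRNA (18) and P4P6 against TOP1 (28), all below 0.

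The members are short messages, and length moved with the differences. Their median transcript length in GENCODE was 1033.5 bases, against 1867 for the 89.2% of tested features with a value; large subunit genes had 899 and small subunit genes 1281. All features with a length were split by it into 4 bins of near-equal size. In P4P6 against sgRNA the shortest bin had a median difference of -0.06 and the longest 0.04. The 35 members in the shortest bin had a median of -0.18, and the 28 in the next bin -0.13 beside -0.04 for all features there. With smooth trends of length and GC content removed, the member median was -0.11 and 7 members passed, beside 3.03% of all features, and 4 of these 7 were among the 18. The part of length in the result was not tested further.

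A further 7 proteins of the mitochondrial ribosome carry other symbols: DAP3, PTCD3, CHCHD1, AURKAIP1, GADD45GIP1, ICT1 and MRP63. None passed in P4P6 against sgRNA (median -0.07, 6 of 7 below 0). DAP3, a GTP-binding protein of the small subunit at a mean of 116 FPKM, had -0.15 (limma adjusted p = 0.0603) against sgRNA. It passed against TOP1 (-0.17, limma adjusted p = 0.0309), where 20% of all features passed. CHCHD1 had -0.19 (adjusted p = 0.0654) and MRP63 0.02 (0.891) against sgRNA. Of the 7 joint features, 1 passed (14.3%, beside 11.5% of all features), and all 7 were below 0. The feature that passed was MRPS28,TPD52 (-0.17, limma adjusted p = 0.0339). Which of the joined genes contributes was not tested.

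Factors that work with the ribosome are read against the same background of 11.5% of all features. Of 15 tested mitochondrial translation factors, 1 was lower with P4P6 than with sgRNA and 0 higher (median -0.11, 10 below 0). This was MTIF2, the initiation factor that places the first tRNA, with -0.28 (limma adjusted p = 0.0378). The elongation factor GFM1 had -0.15 (adjusted p = 0.0752), the release factor relative C12orf65 0.17 (0.205) and the formyltransferase MTFMT 0.15 (0.239). Of 19 assembly and rRNA modification factors, 0 passed (median -0.06, 14 below 0), with the GTPase ERAL1 at -0.13 (adjusted p = 0.21) and the helicase DHX30 at 0.13 (0.0596). Of 9 tested features for mitochondrial transcription and RNA processing, 1 passed: TFAM, which packages and transcribes mitochondrial DNA, was lower (-0.21, 0.0298), beside TFB2M at -0.25 (0.0594) and the polymerase POLRMT at 0.07 (0.567).

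Genes of 2 other assemblies were counted in the same comparison. Of 79 tested cytoplasmic ribosomal protein features, 63 passed as lower and 0 as higher (median -0.28), and of 33 complex I subunits 16 as lower and 0 as higher (median -0.20). NDUFB2, an accessory subunit of complex I, had -0.39 (limma adjusted p = 0.0231), and RPL31, a cytoplasmic large subunit protein, -0.35 (0.0241). No test compared these lists with the members. The 13 messages that mitochondrial ribosomes translate were sought by their MT- symbols. None was among the named features, so they were not analysed here.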

How the data were processed

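Polyadenylated RNA of 10 HEK293FT libraries was analysed from a table of FPKM values deposited by the authors, with a column for each library. TopHat2 2.0.13, Cuffdiff 2.2.1 and the build hg19 are named in the submitters' processing notes; which annotation and which library scaling they used is not given in the sources used here. Raw counts were not used here, so depth was only estimated. Columns were matched to groups by name, and their index was not matched to replicate numbers. The 945 features without a name were left out of 20246.

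Values were tested as log2(FPKM + 1), with a pseudocount of 1, for the 11574 features with a mean of at least 1 FPKM. R 4.3.3 and limma 3.58.1 were used with an intensity trend and a mean per group over all 10 libraries (5 residual degrees of freedom). Two-sided p-values were adjusted (Benjamini-Hochberg) over all tested features within a comparison, with a threshold of 0.05. The procedure was tested on simulated data. Transcript lengths and GC content came from GENCODE by symbol and promoters from RefSeq, both on GRCh38. The 8 planned comparisons were each guide and all guides with CasVP, and the other guides with sgRNA; 3 between INT, P4P6 and TOP1 were added after seeing the data. Alternatives were another pseudocount (0.1), no filter or a mean of at least 5 FPKM, 2 other scalings, no trend, library weights, only the libraries of 2 groups, removal of length and GC trends (spline with 4 degrees of freedom), an index block, and each library left out.

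The members and lists were chosen with earlier results of these data known. Genes named are those that passed (the 4 largest falls described), the 4 highest and lowest of each subunit, the 2 largest non-overlapping each way against CasVP, the S18 paralogs, MRPL12 and, from the other lists, some of those that passed or had the 2 largest differences each way between P4P6 and CasVP; the 4 genes above 0 with P4P6 and those that passed against TOP1 only were added after their values were seen.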

Additional observations from a re-analysis of the deposited data

How the results depend on the processing

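In P4P6 against sgRNA and against TOP1, the sign of each called member stayed the same in every alternative run. With quantile normalization the member medians were 0.014 (sgRNA against CasVP), -0.0625 (P4P6 against CasVP), 0.0164 (TOP1 against CasVP), -0.065 (INT against sgRNA), -0.0849 (P4P6 against sgRNA), -0.0305 (P4P6 against INT), -0.093 (P4P6 against TOP1) and -0.0548 (INT against TOP1). With length and GC trends removed they were -0.0761 (P4P6 against CasVP), 0.0222 (TOP1 against CasVP), -0.079 (INT against sgRNA), -0.113 (P4P6 against sgRNA), -0.0166 (P4P6 against INT) and -0.113 (P4P6 against TOP1), and the same with the replicate block added.

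The 18 members lower in P4P6 than in sgRNA (11.5% of all features called) became 9 without the filter on low values (3.78%) and 6 without the trend (5.77%). They became 8 with library weights (3.32%), 7 with length and GC trends removed (3.03%) and 1 with quantile normalization (3.36%). When only these 2 groups entered the fit, 0 members passed, and 2 of all 11574 features did. The 28 against TOP1 (20%) became 13 with library weights (10.4%), 12 with length and GC trends removed (6.54%) and 4 with quantile normalization (10.2%). With only those 2 groups 0 members passed, and 1 of all 11574 features did. The fits of 2 groups use fewer samples, and 16977 features were tested without the filter. Why the counts changed was not tested. The other alternatives run on these counts, a pseudocount of 0.1, median-of-ratios rescaling and a mean of at least 5 FPKM, stayed within 1.5 times, as did no filter (21) and no trend (20) against TOP1.

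Whether the index 0 or 1 pairs libraries across groups is not stated in the labels. Differences between index 0 and 1 correlated between groups by -0.04 to 0.42 over features, with 2 of 10 pairs of groups not over 0.1. With the index as a replicate block, 30 members passed in P4P6 against sgRNA (20.1% of all features), 35 against TOP1, of which 34 lower (28%), and 8 against CasVP (5.18%). With length and GC trends also removed, 18 (10.8%), 20, of which 19 lower (15.9%), and 4 (1.57%) passed.

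With each library left out in turn, the medians ranged from 0.0301 to 0.0441 (sgRNA against CasVP), -0.0682 to -0.0461 (INT against CasVP), -0.125 to -0.0871 (P4P6 against CasVP), 0.0301 to 0.0678 (TOP1 against CasVP), -0.116 to -0.0921 (INT against sgRNA), -0.175 to -0.13 (P4P6 against sgRNA), -0.0066 to 0.00946 (TOP1 against sgRNA), -0.0294 to -0.015 (all guides against CasVP), -0.0838 to -0.0196 (P4P6 against INT), -0.172 to -0.141 (P4P6 against TOP1) and -0.111 to -0.0966 (INT against TOP1). Members passing ranged from 0 to 31 in P4P6 against sgRNA, 1 to 35 in P4P6 against TOP1 and 0 to 20 in P4P6 against CasVP, and were 0 in the other comparisons. A library left alone in its group is assumed to vary like the others. Depth is known only as a ratio between libraries, so no counting error is given.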
